A study of Mus musculus with 24 samples.

Results

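The cytosolic ribosomal protein genes encode the proteins that, with the ribosomal RNAs, make up the large and the small subunit of the ribosome that translates nuclear-encoded mRNAs. They were taken from the hippocampal count table as every gene whose symbol is Rpl or Rps followed by digits and at most a letter, x or l suffix, together with Rplp0, Rplp1, Rplp2 and Rpsa. Kinase genes of the Rps6k family and genes named as pseudogenes were left out. The rule took 82 of 55471 genes, of which 51 belong to the large and 31 to the small subunit. By annotation 79 are protein coding, and the remaining 3 are Rps4l, a transcribed processed pseudogene, and Rpl32l and Rpl6l, both processed pseudogenes. The members lie on 19 chromosomes, 4 of them on X.

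A cell makes ribosomal proteins in nearly equal numbers, because each ribosome holds a single copy of most of them. Their mRNAs are among the most abundant of a typical cell and commonly start with a run of pyrimidines, the terminal oligopyrimidine (TOP) motif, through which mTORC1 signaling and Larp1 control their translation. In neurons, part of the pool is transported to dendrites and axons, and protein synthesis is needed for lasting forms of synaptic plasticity. Mammalian genomes hold large numbers of processed pseudogenes copied from these short, highly expressed mRNAs.

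The study asked how loss of the lysine acetyltransferase CBP, encoded by Crebbp, changes the response of the adult hippocampus to an enriched environment (EE). CBP-ifKO mice carry floxed Crebbp alleles and CaMKIIα-creERT2, a tamoxifen-inducible recombinase that acts in excitatory neurons of the forebrain. Their controls were littermates without creERT2. Both genotypes were C57BL/6 females aged 3 to 6 months, and both received tamoxifen in 5 administrations at 20 mg/mL. Mice lived in a standard cage (SC) or in EE, which gave 4 groups of 3 mice: Control SC, CBP-ifKO SC, Control EE and CBP-ifKO EE. Total RNA came from the whole hippocampus of individual mice, so a difference between groups can come from fewer cells of a type or from less RNA per cell, and these cannot be told apart. Cells that do not express the recombinase keep Crebbp in CBP-ifKOs.

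The 12 libraries held 26874015 to 37448388 counts, and the 6 CBP-ifKO libraries contained no odd count, so that their depth in independent reads is not known. Crebbp was at 75.5 ± 5.8 CPM (a gene's count relative to the library total, scaled with TMM factors and given with its SD, n = 3) in Control SC and 50.7 ± 0.80 CPM in CBP-ifKO SC, and the 2 genotypes did not overlap in either housing. Summed markers of excitatory neurons, 6 of 6 measured, were between 5878 and 7247 CPM in all mice. Summed choroid plexus markers, 6 of 6 measured, were at 1251 CPM in Control EE mouse 1 and between 34.8 and 63.0 CPM in the other 11 mice.

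The 82 genes took between 0.234 and 0.280% of all counts in a library, and their levels were uneven. Levels per kb are per kb of the deposited gene length, which for all 82 members equals the union of all annotated exons. It can be far longer than the coding sequence, as for Rps3 with 4483 bases beside 729 coding bases. It is thus not the length of a single mRNA. Rplp1, an acidic protein of the ribosomal stalk, was highest at 330 CPM per kb. Rpl4, whose protein lines the exit tunnel of the large subunit, was at 180 CPM per kb, Rps15 at 174 and Rpl8 at 139 CPM per kb. The lowest core members were Rps29 at 0.409, Rpl23a at 0.440 and Rps16 at 0.461 CPM per kb. The 5 highest members held 41.1% of the counts on all members, and the 10 highest held 59.2%. At the other end, 11 members were under 1 CPM, and 43 were at 10 CPM or more.

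Levels were higher where more of the coding sequence is found nowhere else among annotated transcripts. The study kept single-end reads of 50 bases that aligned with sufficient mapping quality, so a read that fits a gene and its pseudogene equally well can be lost to both. Each coding sequence was therefore divided into all stretches of 50 bases, and each stretch was searched for in 141767 GENCODE transcripts of any other gene. Over all annotated transcripts of a member, a stretch in common with an annotated pseudogene was found for 79 of 82 members, and 1088 pseudogenes were involved. For 29 members no coding stretch was unique, and their median level was 1.82 CPM per kb. For the 28 members with up to 20% unique stretches the median was 6.97 CPM per kb. For the 25 members above 20% it was 25.2 CPM per kb. It was 32.2 CPM per kb over the 20 of them other than Rpl3l, Rpl39l, Rpl10l, Rpl6l and Rpl32l, paralogs and annotated pseudogenes that were set apart after their low levels were seen. Across the 77 genes without those 5, unique percentage and level per kb had a Spearman correlation of 0.80, and over all 82 it was 0.53. The genes share libraries and the correlation is across genes, so it is given as a description, and the 3 classes were cut after the values were seen. The part of read mapping in the levels was not tested.

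**Figure D1:**
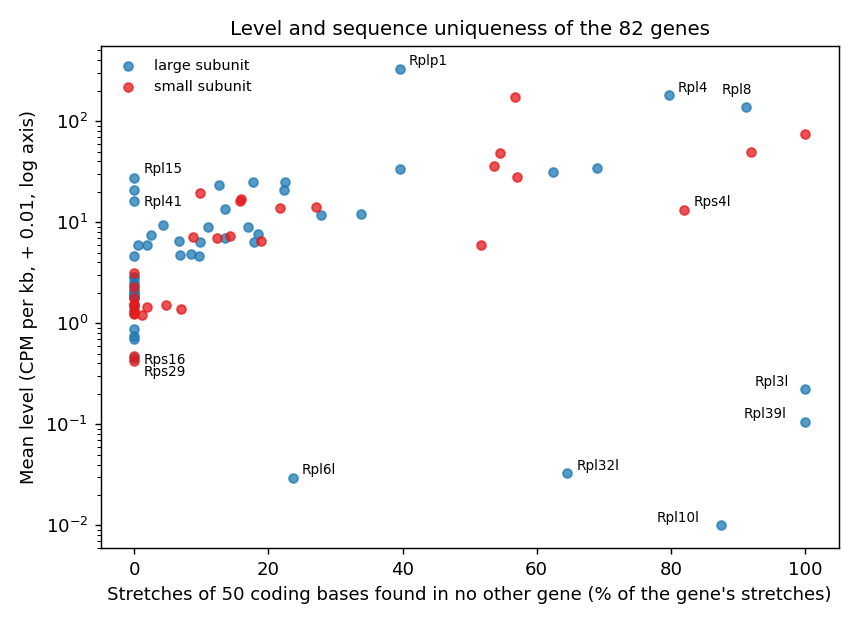
Mean level of each of the 82 ribosomal protein genes (vertical, CPM per kb plus 0.01, log axis) against the percentage of its 50-base coding stretches that no other annotated gene holds (horizontal). Points are genes, blue for the large and red for the small subunit; genes at 0% run from 0.409 to 27.2 CPM per kb with a median of 1.82, and the paralogs and pseudogenes Rpl3l, Rpl39l, Rpl10l, Rpl32l and Rpl6l lie at the bottom, at 23.6% (Rpl6l) to 100% unique stretches.

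Some members stood apart from this relation. Rpl15 had no unique coding stretch and was still at 67.3 CPM, and Rpl41, which encodes a very short basic peptide, was at 24.4 CPM with none. Over all annotated transcripts, coding or not, 75.1% of the stretches of Rpl15 and 82.4% of those of Rpl41 were unique. The value was 81.1% for Rps29, one of the lowest members. Exons of 27 members overlap another gene on the same strand, mostly small nucleolar RNAs that lie in their introns or retained introns, and 18 overlap a gene on the opposite strand. Whether the study counted by strand is not given in the sources used here, and for those genes the counts can include reads of the partner.

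The rule takes several pairs of close relatives. For 4 of these pairs the first 50 coding bases, the length of a read, are shown so that the relatives can be compared. The sequences are from GENCODE M21 transcripts on GRCm38, and capitals mark the bases at which the members of a pair differ.
Rps27: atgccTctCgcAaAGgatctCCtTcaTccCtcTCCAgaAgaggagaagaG
Rps27l: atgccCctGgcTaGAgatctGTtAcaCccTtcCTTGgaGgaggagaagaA
Rpl3: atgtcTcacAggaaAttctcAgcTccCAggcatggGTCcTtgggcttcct
Rpl3l: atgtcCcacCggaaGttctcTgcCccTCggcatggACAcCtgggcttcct
Rpl39: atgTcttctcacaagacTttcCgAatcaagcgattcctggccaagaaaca
Rpl39l: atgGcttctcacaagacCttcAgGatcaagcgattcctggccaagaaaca
Rps4x: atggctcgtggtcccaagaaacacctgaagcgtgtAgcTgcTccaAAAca
Rps4l: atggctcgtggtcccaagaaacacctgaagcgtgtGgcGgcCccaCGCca
Rps27 (chr3:90212522-90213651, minus strand) and Rps27l (chr9:66946086-66949516, plus strand) differ at 16 of these 50 positions, Rpl3 (chr15:80077791-80091868, minus) and Rpl3l (chr17:24727820-24736143, plus) at 11, Rps4x (chrX:102184941-102189394, minus) and Rps4l (chr6:148354656-148355598, plus) at 6, and Rpl39 (chrX:37082520-37085402, minus) and Rpl39l (chr16:10170226-10174911, plus) at 4. Over the whole coding sequence Rps27 and Rps27l are 76.2% identical, and Rpl39 and Rpl39l 85.0%.

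Per kb of annotated exons, the relatives Rpl3l, Rpl39l and Rps4l were at 0.213, 0.0959 and 13.2 CPM per kb, below Rpl3, Rpl39 and Rps4x at 9.46, 6.92 and 19.5 CPM per kb. Rps27l was above Rps27, at 5.97 against 1.24 CPM per kb. Rpl3, which forms part of the peptidyl transferase center, was at 28.4 to 33.1 CPM in 11 mice and 25.9 CPM in the remaining one, CBP-ifKO EE mouse 1. Rpl3l, known from striated muscle, was at 0.120 to 0.587 CPM, on 4 to 22 counts a library. Rpl39 was at 8.42 to 11.5 CPM and Rpl39l, known from testis, at 0 to 0.212 CPM. Rpl10 was at 4.76 to 6.82 CPM, and its retrotransposed testis copy Rpl10l had 0 counts in every library, which allows a level of up to 0.112 CPM in the smallest library (3 counts, counting error only). Rps27, with no unique coding stretch, was at 1.02 to 1.66 CPM, and Rps27l was at 3.23 to 6.18 CPM with 51.7% of its coding stretches unique. Rps4x was at 28.5 to 34.9 CPM and Rps4l at 10.5 to 15.2 CPM.

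Promoter sequences were given for 61 members, as 73 windows of RefSeq on GRCm38.p6. On the transcript's strand, the longest run of bases that are each C or T was taken among those overlapping the 20 bases on either side of the annotated start. A run of 8 or more was found in 35 of the 73 member promoters (47.9%) and in 6893 of all 32851 promoters (20.98%). Of 9 windows read for members described individually, the 4 with a run of 8 or more are shown, and capitals mark that run.
Rplp2: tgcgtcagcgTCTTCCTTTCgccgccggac
Rps6: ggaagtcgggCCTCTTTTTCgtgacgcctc
Rpl38: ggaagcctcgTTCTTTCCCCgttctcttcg
Rps27: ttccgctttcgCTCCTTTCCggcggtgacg
They are at chr7:141447636-141447665 (plus strand), chr4:86857349-86857378 (minus), chr11:114668568-114668597 (plus) and chr3:90213632-90213661 (minus). The runs are 10 bases long in Rplp2, Rps6 and Rpl38 and 9 in Rps27. In the other 5 windows the longest run was 7 bases in Rplp0, 5 in Rpsa, 4 and 5 in the windows of Rpl22 and 4 in Rpl10. Such a match is a description of the window, not a start site that was measured.

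As a set, the members did not separate the groups. The share of counts on members was 0.258 ± 0.016% in Control SC, 0.252 ± 0.0088% in CBP-ifKO SC, 0.259 ± 0.023% in Control EE and 0.268 ± 0.011% in CBP-ifKO EE (SD, n = 3 each). In Control SC the 3 mice were at 0.269, 0.240 and 0.266%, and in CBP-ifKO SC at 0.243, 0.260 and 0.254%. In Control EE they were at 0.263, 0.234 and 0.280%, and in CBP-ifKO EE at 0.274, 0.256 and 0.275%. Both the lowest and the highest mouse of the study were in Control EE. The mean log2 CPM over the 78 members tested in all mice was 3.51, 3.47, 3.52 and 3.53 in the same order of groups. The largest of the 4 differences between groups was 0.064 on this log2 scale, between CBP-ifKO EE and CBP-ifKO SC, less than the pooled SD between mice of 0.074, and the ranges overlapped in all 4 comparisons. For the share of counts the same difference was 0.0159 percentage points, beside a pooled SD of 0.0158. The size and the order of these differences depended on the measure and on single mice. Taken as the median over members, the score gave 0.016 for EE in CBP-ifKOs and 0.060 for EE in controls, and it gave -0.05 in place of 0.01 for genotype in EE. The mean gave 0.038 for EE in CBP-ifKOs with the length trend removed. With 1 mouse left out, this difference was between 0.033, without CBP-ifKO SC mouse 1, and 0.091, without CBP-ifKO SC mouse 2. For genotype in SC the mean gave -0.044 with all mice and -0.089 without Control SC mouse 2, which is beyond the pooled SD. Its other end was -0.012, without CBP-ifKO SC mouse 1. The range was -0.046 to 0.064 for genotype in EE and -0.043 to 0.066 for EE in controls.

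**Figure D2:**
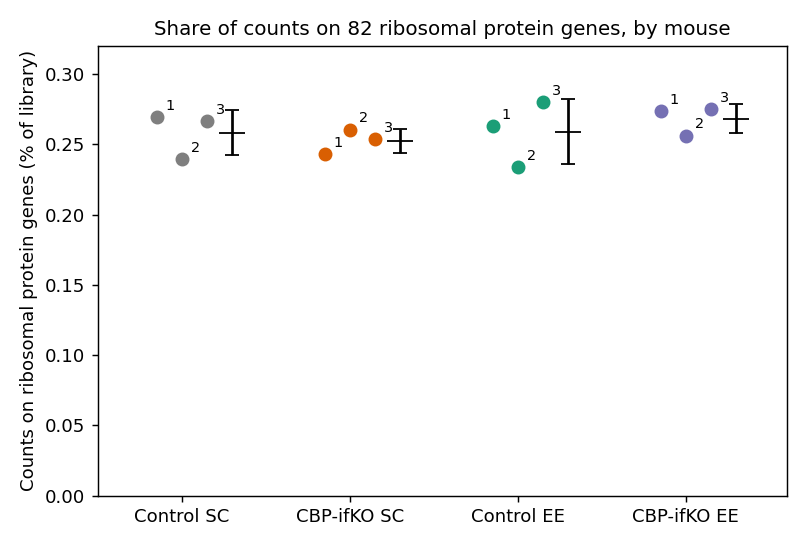
Counts on the 82 ribosomal protein genes as a percentage of all counts of the library (vertical, from 0) for each of the 12 mice by group. Points are mice with their replicate numbers, and the bar to the right is the group mean with its SD (n = 3); the 4 means lie between 0.252 and 0.268% and the ranges overlap.

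The members moved together from mouse to mouse within groups. In Control EE mouse 3, 63 of 78 members were above their own mean over the 12 mice, with a median deviation of 0.14 on the log2 scale. In Control SC mouse 2, only 18 of 78 were above it, with a median deviation of -0.09, and the values were 20 of 78 and -0.09 in Control EE mouse 2 and 19 of 78 and -0.10 in CBP-ifKO SC mouse 1. The medians of the large and the small subunit had the same sign in 10 of the 12 mice. After the group means were taken out, the mean Pearson correlation between pairs of the 43 members at 10 CPM or more was 0.48 over 12 mice, and 90.8% of the 903 pairs were positive. For the 35 lower members it was 0.063, with 58.5% of 595 pairs positive. Among the 10241 genes of all kinds at 10 CPM or more, the mean correlation was 0.0060.

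**Figure D3:**
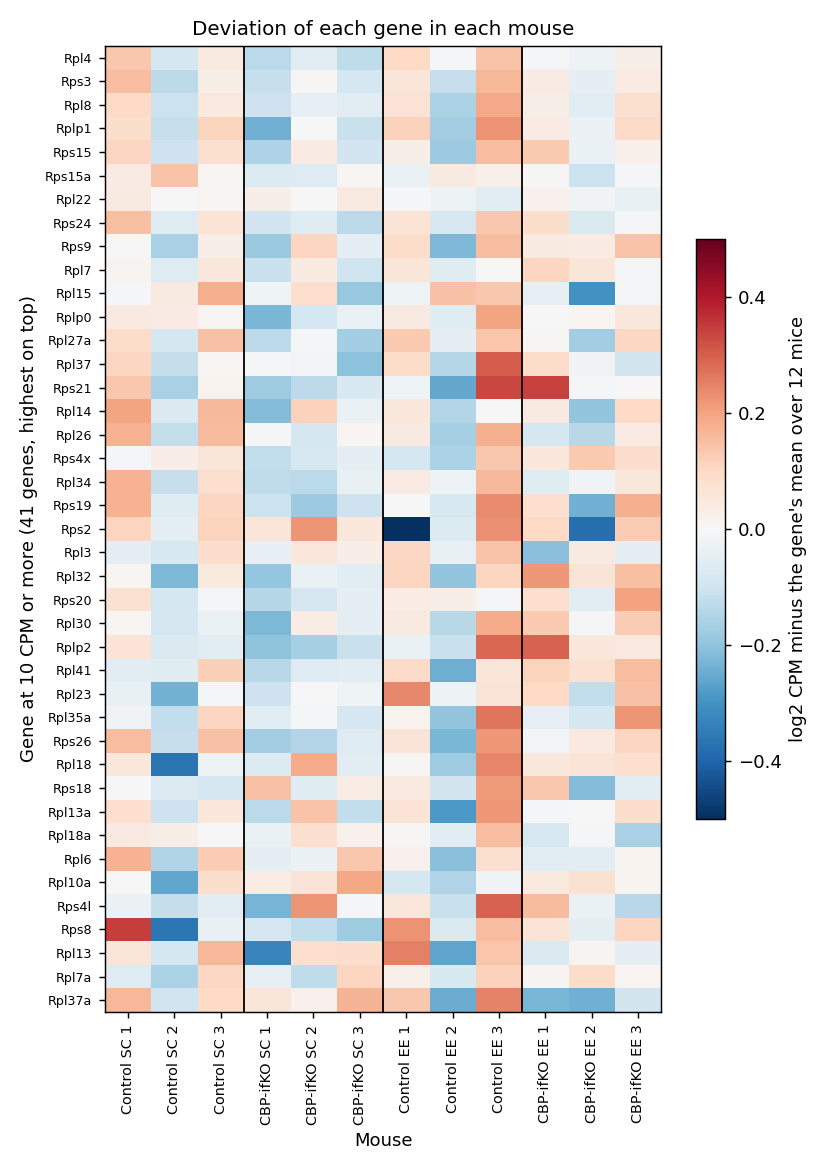
Deviation of log2 CPM from the gene's own mean over 12 mice (color, blue lower and red higher, colors stop at ±0.5) for 41 of the 43 members at 10 CPM or more (rows, highest level on top) in each mouse (columns, groups divided by lines). Columns rather than groups stand out: Control EE mouse 3 is mostly red, and Control SC mouse 2, Control EE mouse 2 and CBP-ifKO SC mouse 1 are mostly blue.

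Members differed in how closely they followed the others. Rpl8 correlated at 0.98 with the mean of the other members at 10 CPM or more within groups, Rplp1 at 0.96 and Rps3 at 0.95. Rpl22, whose protein binds RNA and is dispensable for the ribosome in many cell types, correlated at -0.03, and Rps15a at -0.24. Rpl22 varied least of the 43 members at 10 CPM or more, from 96.9 to 103 CPM with a coefficient of variation of 2.12% over the 12 mice. Rpl15 correlated at 0.15.

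Other gene groups had high and low mice in common with the members. The nuclear-encoded subunits of oxidative phosphorylation (OXPHOS) had their highest median deviation in Control EE mouse 3, at 0.14, and their lowest in Control SC mouse 2 and CBP-ifKO SC mouse 1, at -0.12 and -0.11. The mitochondrial ribosomal proteins had their lowest medians in Control SC mouse 2 and Control EE mouse 2, at -0.14 and -0.10. Genes with less than 1500 bases of exons, whatever their function, were at 0.080 in Control EE mouse 3 and between -0.045 and -0.023 in the 2 control mice numbered 2 and in CBP-ifKO SC mouse 1. The mean correlation between pairs within groups was 0.63 for OXPHOS subunits and 0.39 for mitochondrial ribosomal proteins, and 0.26 for other mRNAs of the TOP class. It was 0.017 for the 65 ribosome biogenesis factors at 10 CPM or more. The part of gene length or RNA quality in the shared movement was not tested.

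**Figure D4:**
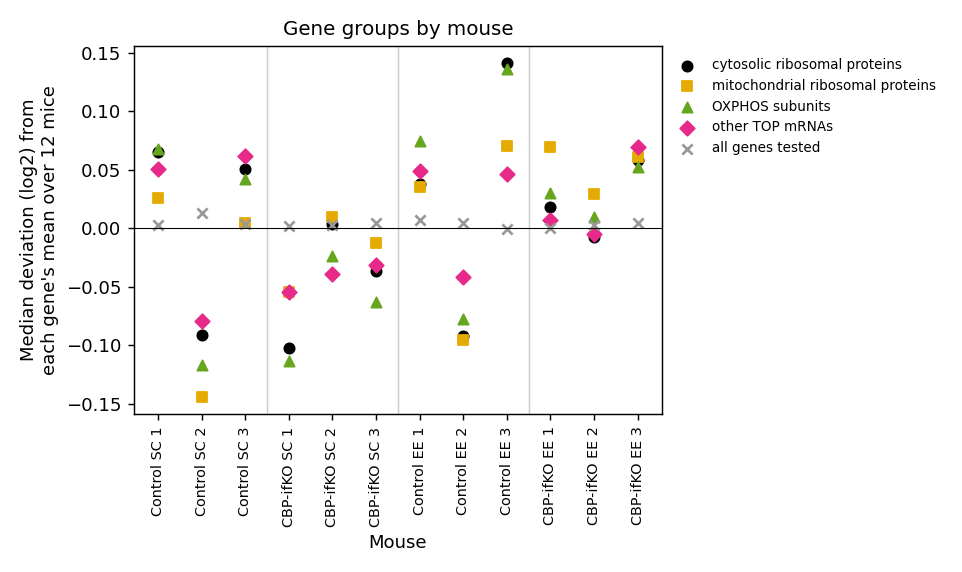
Median deviation (log2, vertical) from each gene's own mean over 12 mice for 5 groups of genes in each mouse (horizontal). Points are medians over the genes of a group: the ribosomal proteins (black) and OXPHOS subunits (green) are both near 0.14 in Control EE mouse 3 and both at -0.078 or lower in Control SC mouse 2, CBP-ifKO SC mouse 1 and Control EE mouse 2, while the median of all genes tested (crosses) stays between -0.00 and 0.01.

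In standard cages, loss of CBP gave no call among the 77 members tested with edgeR's quasi-likelihood test at an adjusted p below 0.05, where 5.52% of all genes tested were called. The median log2 fold change of CBP-ifKO SC over Control SC was -0.04 for members and -0.00 for the 17532 genes tested. At an unadjusted p below 0.05, edgeR gave 0 members higher and 7 lower, against 8.44% and 12.1% of all genes, and DESeq2, which called none either, gave 0 and 3. The 95% interval of the fold change lay within ±0.5 on the log2 scale for 62 of the 77. The groups did not overlap for 9 members, all lower in CBP-ifKOs, where 13.8% of all genes were lower without overlap and 12.1% higher.

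Among the members at an unadjusted p below 0.05 were Rps19, Rps24, Rplp0, Rpsa, Rpl4 and Rps26. Rps19, a small subunit protein that is the most frequent target of mutations in Diamond-Blackfan anemia, was at 34.6, 29.4 and 33.0 CPM in Control SC and at 28.5, 27.1 and 28.6 CPM in CBP-ifKO SC. All 3 CBP-ifKO mice were below all 3 controls, and the log2 fold change was -0.21 (SE 0.075, edgeR adjusted p = 0.138). Rpl4 was at 396, 340 and 373 CPM in Control SC and at 329, 348 and 331 CPM in CBP-ifKO SC, with control mouse 2 below CBP-ifKO mouse 2, and a log2 fold change of -0.14 (SE 0.060, edgeR adjusted p = 0.221).

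Calls among members depended on 1 control mouse. Rps26, a small subunit protein at the mRNA exit site, was at 24.2, 20.1 and 24.1 CPM in Control SC and 19.2, 19.7 and 20.8 CPM in CBP-ifKO SC, where Control SC mouse 2 overlapped with the CBP-ifKOs. Without Control SC mouse 2, 5 members were called lower in CBP-ifKO SC by edgeR: Rps19, Rpl4, Rps24, Rps26 and Rpl27a, with log2 fold changes between -0.28 for Rps26 and -0.20 for Rpl4, and adjusted p between 0.0213 for Rpl4 and 0.0471 for Rpl27a. In that fit 4.28% of all genes were called higher and 6.36% lower. The median over members was -0.10 without this mouse. With each of the other 5 mice left out in turn, edgeR called 0 members, and the median was between -0.09, without CBP-ifKO SC mouse 2, and -0.01, without Control SC mouse 1. Summed astrocyte markers, 6 of 6 measured, were at 2281 to 2387 CPM in Control SC and 2142 to 2168 CPM in CBP-ifKO SC, and microglia markers, 6 of 6 measured, at 263 to 267 and 234 to 256 CPM. Endothelial markers were at 178 to 181 and 151 to 163 CPM, interneuron markers at 851 to 917 and 796 to 833 CPM and choroid plexus markers at 47.5 to 53.2 and 35.3 to 38.9 CPM, with 6 of 6 measured in each list. None of these 5 sums overlapped between the genotypes. Their part in the members' values was not tested.

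The 20 tested members with over 20% unique coding stretches had a median log2 fold change of -0.11 in this comparison, and 17 of 20 were below 0. Over all genes tested, 8825 of 17532 were below 0, beside 68 of 81 OXPHOS subunits and 22 of 26 other TOP mRNAs. The median was -0.01 for the 29 members without a unique stretch, 14 of them above 0 and 15 below, and -0.04 for the 28 between, 12 above 0 and 16 below. With any 1 mouse left out, the median of the first class was between -0.16 and -0.06. The first class was also measured more precisely, with a median SE of 0.072 beside 0.158 in the class without a unique stretch. As members moved together from mouse to mouse, these counts are not separate observations. These values have no test of their own.

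In EE, the same comparison of genotypes also gave 0 calls among 77 members with edgeR and with DESeq2, where edgeR called 4.57% of all genes. The median log2 fold change of CBP-ifKO EE over Control EE was 0.00 for members and 0.01 for all genes, with 39 members above 0 and 38 below. Unadjusted, edgeR gave 1 member higher and 1 lower (8.39% and 11.2% of all genes) and DESeq2 0 and 1. Groups did not overlap for 4 members that were higher (11.4% of all genes) and 2 that were lower (13.9% of all genes). For 55 of 77 members the 95% interval lay within ±0.5.

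Rps27a, which is translated as a fusion with ubiquitin, was at 2.39, 2.39 and 2.89 CPM in Control EE and at 3.36, 3.36 and 3.17 CPM in CBP-ifKO EE. The groups did not overlap, and the log2 fold change was 0.38 (SE 0.17, edgeR adjusted p = 0.250). Rpl15 was at 66.1, 74.3 and 73.6 CPM in Control EE and at 65.2, 54.5 and 66.7 CPM in CBP-ifKO EE, with an overlap through Control EE mouse 1 and a log2 fold change of -0.19 (SE 0.084, edgeR adjusted p = 0.241). The median over members moved from 0.00 to -0.07 without Control EE mouse 2 and to 0.06 without Control EE mouse 3. Astrocyte markers were at 2234 to 2353 CPM in Control EE and 2018 to 2057 CPM in CBP-ifKO EE, microglia markers at 243 to 272 and 227 to 234 CPM and interneuron markers at 871 to 947 and 821 to 855 CPM. Mitochondrial transcripts were at 39122 to 42955 CPM in Control EE and 36621 to 38937 CPM in CBP-ifKO EE, also without overlap. Their part in these values was not tested either.

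Enrichment in control mice, the comparison of Control EE with Control SC in the fit of all 12 mice, gave 0 calls among 78 members with edgeR and DESeq2 and 0% of all genes called with edgeR. The median log2 fold change was 0.02 for members and 0.00 for all 18251 genes tested. Unadjusted, edgeR gave 0 members higher and 1 lower (2.08% and 2.13% of all genes) and DESeq2 0 and 0. The one was Rps29, a zinc-binding protein of the small subunit, which was at 0.408, 0.227 and 0.472 CPM in Control SC and 0.147, 0.0772 and 0.256 CPM in Control EE. These values overlapped and were 13 counts or fewer in each library. Its log2 fold change was -1.18 (SE 0.53, edgeR adjusted p = 0.999). No member was higher in EE without overlap (4.2% of all genes), and 1 was lower (4.91%), Rpl22, with a log2 fold change of -0.04. The median over members was -0.04 without Control EE mouse 3 and 0.08 without Control EE mouse 2. It was 0.01 without Control EE mouse 1, which held the choroid plexus markers. Endothelial markers were at 178 to 181 CPM in Control SC and 152 to 176 CPM in Control EE, and their part was not tested.

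In CBP-ifKOs, EE gave 0 calls among 78 members with edgeR and DESeq2, where edgeR called 0.011% of all genes. The median log2 fold change of CBP-ifKO EE over CBP-ifKO SC was 0.07 for members and -0.00 for all genes, with 51 members above 0 and 27 below. The members' median was 0.04 with the trend on gene length removed. Astrocyte markers were at 2142 to 2168 CPM in CBP-ifKO SC and 2018 to 2057 CPM in CBP-ifKO EE, without overlap, and their part in the members' values was not tested. Unadjusted, edgeR gave 6 members higher and 2 lower, against 3.97% and 4.62% of all genes, and DESeq2 5 and 1. Groups did not overlap for 11 members that were higher (7.69% of all genes) and 2 that were lower (8.17%). The 2 lower ones were Rpl37a and Rps25.

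Rplp2, a phosphoprotein of the ribosomal stalk, had the smallest p. It was at 21.5, 22.0 and 22.9 CPM in CBP-ifKO SC and at 30.3, 25.6 and 25.6 CPM in CBP-ifKO EE, without overlap, with a log2 fold change of 0.30 (SE 0.097, 95% interval 0.09 to 0.50, edgeR adjusted p = 0.455). Rpl32 followed, at 26.1, 29.1 and 28.7 CPM in CBP-ifKO SC and 34.6, 31.1 and 33.0 CPM in CBP-ifKO EE, with a log2 fold change of 0.24 (SE 0.090, edgeR adjusted p = 0.492). Rps4x was at 29.2, 30.04 and 30.8 CPM in CBP-ifKO SC and 32.9, 34.8 and 33.7 CPM in CBP-ifKO EE, and its log2 fold change was 0.17 (SE 0.071, edgeR adjusted p = 0.517). Rpl41, Rps20 and Rpl3l completed the 6, with log2 fold changes of 0.20, 0.17 and 1.15, the last on 4 to 22 counts a library. By unique stretches, 18 of 21 tested members above 20% were above 0 (median 0.10), 16 of 28 with up to 20% (median 0.05) and 17 of 29 without any (median 0.05). In the class above 20%, 11 of 21 were above 0 between genotypes in EE (median 0.01) and 14 of 21 for EE in controls (median 0.02). With 1 mouse left out, the median of this class was -0.09 to 0.07 between genotypes in EE and -0.04 to 0.09 for EE in controls. It was 0.08 to 0.13 for EE in CBP-ifKOs. Over all genes, 9002 of 18251 were above 0 for EE in CBP-ifKOs, beside 70 of 81 OXPHOS subunits and 21 of 26 other TOP mRNAs. These values have no test.

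**Figure D5:**
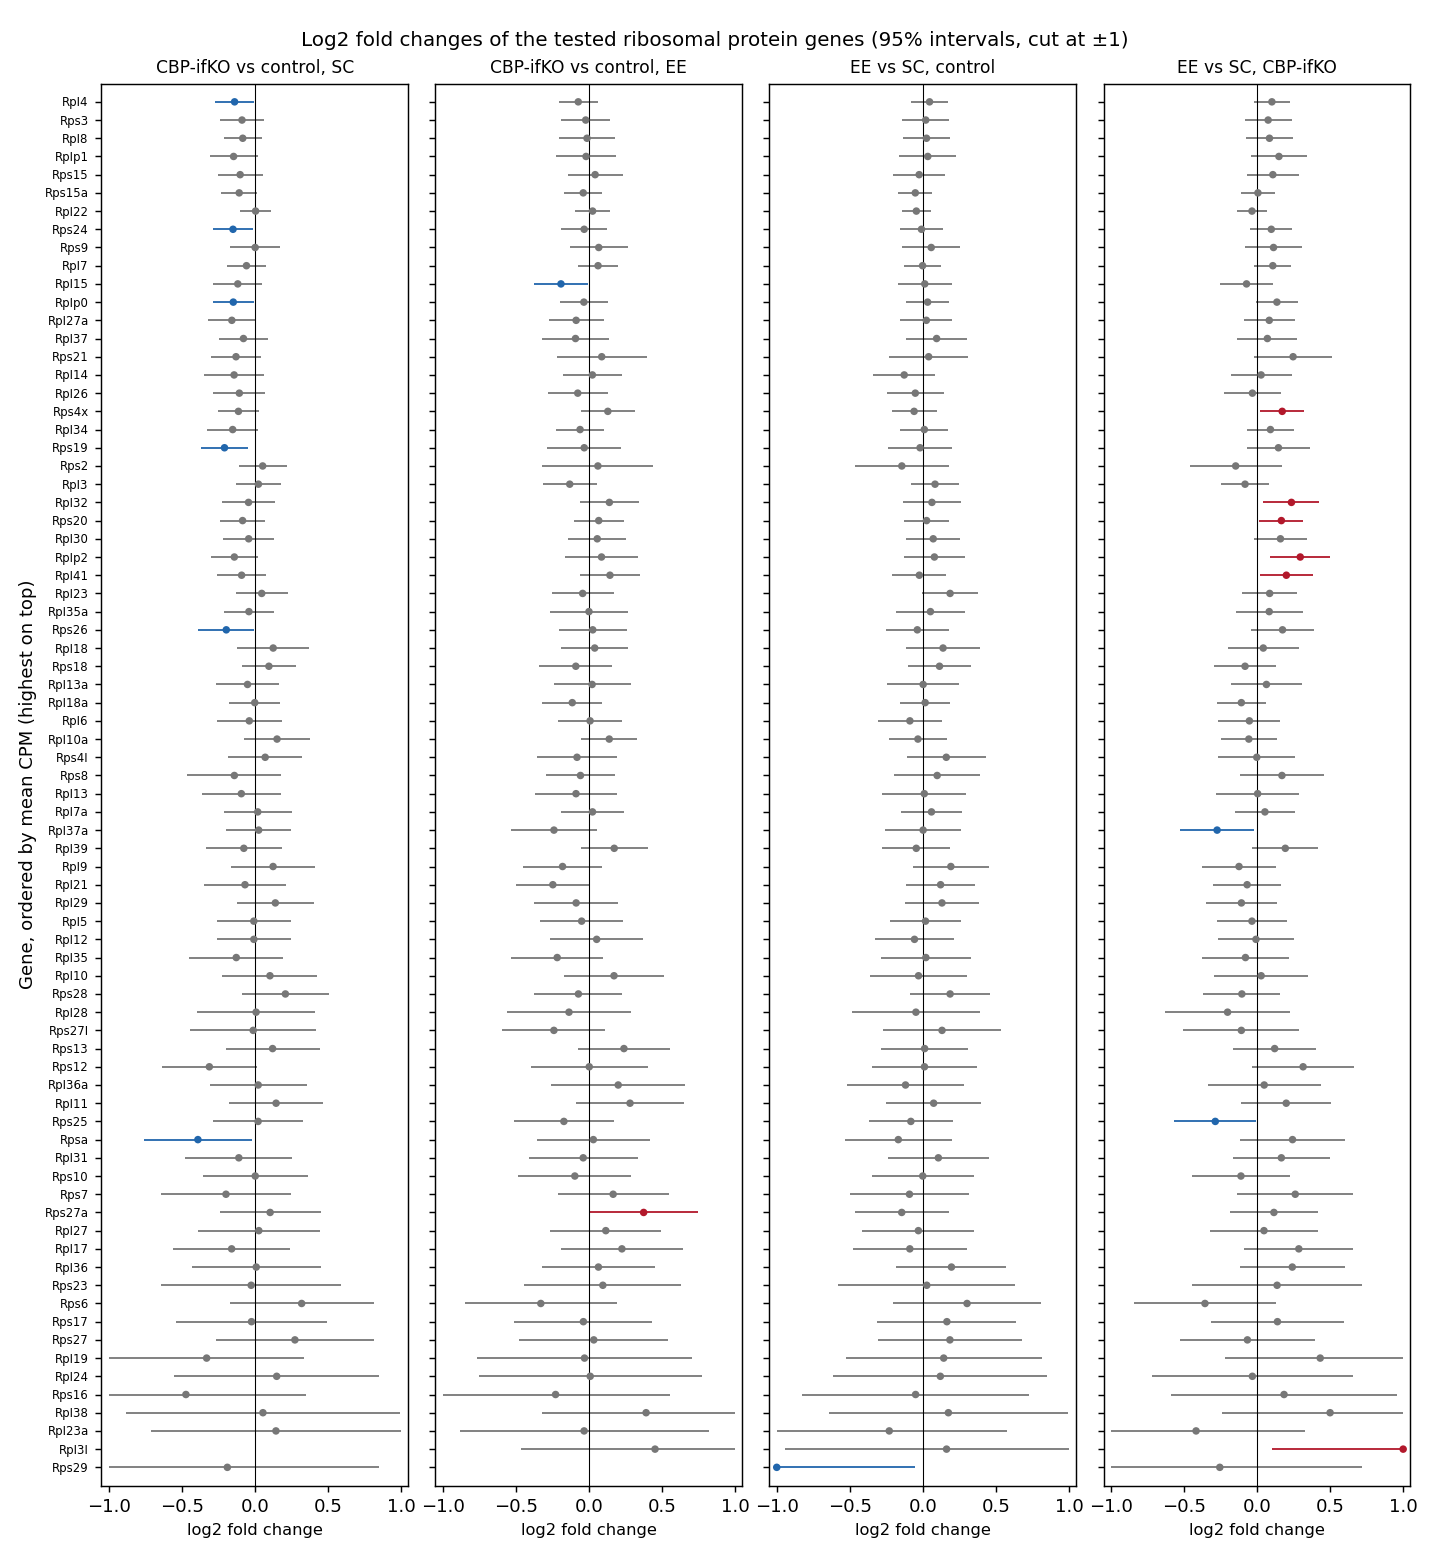
Log2 fold changes (points) with 95% intervals (lines, both cut at ±1) of all but 2 of the tested members in the 4 comparisons between groups, in panels, ordered by mean CPM with the highest on top. Red and blue mark intervals above and below 0 before any adjustment, 6 in the first panel, 2 in the second, 1 in the third and 8 in the last; no member passed an adjusted p of 0.05, and intervals widen toward the low genes at the bottom.

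The test of whether EE acted differently in the 2 genotypes, the interaction, gave 0 calls among 78 members with edgeR and DESeq2, and 0% of all genes with edgeR. Unadjusted, both tools gave 1 member higher and 0 lower (1.75% and 1.4% of all genes with edgeR). It was Rps4x, at 31.6, 32.5 and 33.1 CPM in Control SC and 29.9, 28.5 and 34.9 CPM in Control EE, besides the CBP-ifKO values above. Its difference of log2 fold changes, CBP-ifKO minus control, was 0.23 (SE 0.10, edgeR adjusted p = 0.9998). The median of this difference was 0.06 for members and -0.01 for all genes. Its 95% interval was within ±0.5 for 40 of 78 members, and for the others a difference of that size was not excluded.

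None of the stalk proteins was called in any comparison, although some of their groups did not overlap. Rplp0, the base of the stalk that recruits translation factors, was at 56.4 ± 0.75 CPM in Control SC, 50.9 ± 3.5 in CBP-ifKO SC, 57.6 ± 5.3 in Control EE and 56.0 ± 1.2 in CBP-ifKO EE (SD, n = 3). The genotypes did not overlap in SC. Its log2 fold change between genotypes was -0.15 in SC (edgeR adjusted p = 0.214) and -0.03 in EE (edgeR adjusted p = 0.85). Rplp1 was at 167 ± 14, 152 ± 13, 171 ± 24 and 168 ± 7.3 CPM in the same order. CBP-ifKO SC was the lowest of the 4 groups for Rplp0, Rplp1 and Rplp2 alike, and the 3 genes belong to the class with over 20% unique stretches.

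Among small subunit members, Rpsa, also known as the laminin receptor, was at 3.97, 3.74 and 5.05 CPM in Control SC and at 2.87, 3.32 and 3.55 CPM in CBP-ifKO SC, without overlap. Its log2 fold change was -0.39 (SE 0.17, edgeR adjusted p = 0.219). In EE the genotypes overlapped, at 3.44 to 4.43 CPM in controls and 3.41 to 4.48 CPM in CBP-ifKOs. Rps6, the substrate of the S6 kinases whose phosphorylation is widely used as a sign of neuronal activity, was measured at 1.35 to 2.56 CPM. Its log2 fold changes between genotypes were 0.32 in SC and -0.33 in EE, with intervals of -0.17 to 0.81 and -0.85 to 0.19, and the difference between both housings was -0.66 (SE 0.33, edgeR adjusted p = 0.9998). Rps16 had the lowest fold change of the genotype comparison in SC, -0.47, at 0.371 to 0.854 CPM and with an interval of -1.29 to 0.35.

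Among large subunit members, Rpl10, which joins the subunit late in its maturation, was at 5.62 ± 1.0, 6.05 ± 0.39, 5.501 ± 0.32 and 6.16 ± 1.1 CPM in Control SC, CBP-ifKO SC, Control EE and CBP-ifKO EE. Rpl38, known from its part in the translation of Hox mRNAs, was at 0.227 to 0.705 CPM, and its log2 fold change between genotypes in EE was 0.39 with an interval of -0.32 to 1.11. Rpl22 had the smallest SE of all tested members in both genotype comparisons, with intervals of -0.10 to 0.11 between genotypes in SC and -0.09 to 0.14 in EE.

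The most extreme fold changes of each comparison were on low members. Between genotypes in SC, the 3 lowest were Rps16, Rpsa and Rpl19, the last at 0.529 to 1.10 CPM with a log2 fold change of -0.33, and the 3 highest were Rps6, Rps27 at 0.27 and Rps28 at 0.21. Between genotypes in EE, the 3 lowest were Rps6, Rpl21 at -0.25 and Rps27l at -0.24, and the 3 highest were Rpl3l at 0.45, Rpl38 and Rps27a. Rpl21 was at 7.64, 8.15 and 8.27 CPM in Control EE and 6.56, 6.78 and 6.81 CPM in CBP-ifKO EE, without overlap (edgeR adjusted p = 0.263). These members had mean levels between 0.350 CPM for Rpl3l and 7.29 CPM for Rpl21.

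For EE in control mice, Rps29, Rpl23a at -0.23 and Rpsa at -0.17 had the lowest log2 fold changes, and Rps6 at 0.30, Rpl36 at 0.20 and Rpl9 at 0.19 the highest. For EE in CBP-ifKOs, Rpl23a at -0.42, Rps6 at -0.36 and Rps25 at -0.29 were lowest, and Rpl3l, Rpl38 at 0.50 and Rpl19 at 0.43 were highest. Rpl23a, which lies at the exit of the peptide tunnel, was at 0.256 to 0.530 CPM over the 12 mice. In the interaction, Rps6, Rpl9 at -0.31 and Rps28 at -0.29 were lowest and Rpl3l at 0.99, Rps29 at 0.92 and Rpsa at 0.41 were highest, each with a 95% interval that included 0.

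Other genes that make and regulate ribosomes were taken from lists. Of 66 ribosome biogenesis factors, edgeR called 1 higher and 1 lower between genotypes in SC, and 0 higher and 1 lower in EE, where 5.52% and 4.57% of all genes were called. At an unadjusted p below 0.05, 11 of them were higher and 3 lower in SC (8.44% and 12.1% of all genes). In EE, 6 of 66 were higher and 2 lower (8.39% and 11.2% of all genes). Las1l, a factor of large subunit pre-rRNA cleavage, was at 68.4 ± 2.5 CPM in Control SC and 80.4 ± 1.8 CPM in CBP-ifKO SC and rose by a log2 fold change of 0.23 (edgeR adjusted p = 0.0293). Bop1, of the PeBoW complex, fell from 57.1 ± 5.4 to 46.6 ± 1.3 CPM (-0.30, edgeR adjusted p = 0.0357). Ubtf, the upstream binding factor of RNA polymerase I, fell in EE from 136 ± 4.0 CPM in controls to 116 ± 2.4 CPM in CBP-ifKOs (-0.22, edgeR adjusted p = 0.0480). The median over the list was 0.06 in SC and 0.05 in EE, beside -0.00 and 0.01 for all genes.

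Of 29 genes of mTORC1 and S6 kinase signaling, Akt2 was called lower in CBP-ifKO SC (-0.32, edgeR adjusted p = 0.0210). In EE, Rps6kb2, which encodes an S6 kinase, was called higher in CBP-ifKOs (0.29, edgeR adjusted p = 0.0300) and Pdcd4, an inhibitor of translation initiation, lower (-0.25, edgeR adjusted p = 0.0471). Each of these 6 calls was lost in 3 to 6 of the 6 fits that left out 1 mouse of the comparison. No gene was called by edgeR among 26 other TOP mRNAs, 35 other initiation factors, 77 tested mitochondrial ribosomal proteins, 81 tested OXPHOS subunits and 9 ribosomal protein relatives outside the rule, in any of the 5 comparisons. At an unadjusted p below 0.05, edgeR gave 10 of 81 OXPHOS subunits and 4 of 26 other TOP mRNAs lower between genotypes in SC, where 12.1% of all genes were lower. For EE in CBP-ifKOs it gave 18 of 81 OXPHOS subunits, 7 of 35 initiation factors, 5 of 77 mitochondrial ribosomal proteins and 0 of 26 other TOP mRNAs higher, where 3.97% of all genes were higher. The median log2 fold changes of OXPHOS subunits were -0.06 and 0.10 in these comparisons, and those of the other TOP mRNAs -0.05 and 0.05. The members were at -0.04 and 0.07, and both comparisons share the CBP-ifKO SC mice.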

How the data were processed

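Hippocampal RNA of 12 mice in 4 groups was sequenced in 24 runs, 2 per mouse. Per the labels and the study's methods, the authors trimmed the reads with Trim Galore (0.6.4), aligned them with STAR (2.6.1) to mm10 (GRCm38), kept reads above a mapping quality minimum and counted exons with Rsubread on an Ensembl annotation. The deposited table holds whole-number counts per gene, not normalized, and a length per gene in bases. It has 1 column of counts per mouse, so the runs of a mouse were 1 replicate. Reads that fit several places can be lost by the mapping quality minimum, and how far this changed the levels was not tested. Rows without a symbol held 0.0466 to 0.0661% of counts and stayed in.

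Counts as deposited were tested in edgeR (4.0.16, R 4.3.3) with filterByExpr, TMM factors, glmQLFit and glmQLFTest, Benjamini-Hochberg adjustment over all genes tested and a threshold of 0.05, without a fold minimum. Genotype comparisons used the 6 mice of a housing, and EE comparisons and the interaction all 12. Standard errors and 95% intervals were taken from the F statistic and its degrees of freedom. DESeq2 (1.42.0) without independent filtering was an alternative, and the other alternatives were other scalings and filters, halved or thinned CBP-ifKO counts, a length trend, a replicate block and mice left out. The fits were also run on simulated counts in which genes vary independently and a single group changes. The outcome is not used here. Log2 CPM used a prior count of 2. Uniqueness was computed over GENCODE M21 transcripts on both strands.

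Of the genes that fit the rule, 1 was not analysed here, and 2 more enter counts, medians and sums but are not reported individually. The members and gene lists were chosen with earlier results of these data known. The other members could be named, with values for those called, for the 3 highest and 3 lowest fold changes of each comparison, the 3 highest and 3 lowest levels, the stalk proteins, Rpsa, Rps6, Rps27a, Rpl22, Rpl10, Rpl38 and Rpl3, and the paralog pairs. The uncalled members given for a small p, such as Rps19, Rpl15, Rpl32 and Rps4x, were chosen after their values were seen, and so were the classes of uniqueness. In other lists, at most the 3 called genes with the smallest p in each direction were named. The p-values measure the spread between 3 mice a group.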

Additional observations from a re-analysis of the deposited data

How the results depend on the processing

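No member was called in any of the 5 comparisons with DESeq2, DESeq2 size factors, scaling without the members, no filter, at least 1 CPM in 3 mice, CBP-ifKO counts halved, halved and thinned counts or the length trend removed, nor in the 4 comparisons run with other mice in the fit. The exception was the genotype comparison in SC without Control SC mouse 2, where 5 members were called lower. Leaving out 1 mouse gave 0 to 5 members there and 0 in the other comparisons, and leaving out both control mice numbered 2, an alternative chosen after seeing the data, also gave 5. The median over members in SC was between -0.10 and -0.01 with 1 mouse left out, and in EE between -0.07 and 0.06. Effects of EE had medians of -0.04 to 0.08 in controls and 0.05 to 0.10 in CBP-ifKOs, and the interaction 0.01 to 0.11.

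With the length trend removed, edgeR called 2 mTORC1 genes and 1 OXPHOS subunit lower and 3 ribosome biogenesis factors higher between genotypes in SC, and in EE 1 OXPHOS subunit lower and 1 higher and 2 lower biogenesis factors; the cause was not tested.

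Replicate numbers are shared between groups. The correlations of same-numbered deviations between Control SC and Control EE were 0.19, 0.30 and 0.03 over all genes. Over members they were 0.41, 0.37 and -0.003. Between Control SC and CBP-ifKO SC they were 0.28, -0.04 and -0.09 over members. With 3 mice a group these values cannot tell whether the numbers pair the mice. The main fits left the numbers out, and a replicate block was run as an alternative. With the replicate block the members called were again 0 in all comparisons, and medians were -0.04 in SC and -0.01 in EE. Over all genes, the block gave 286 higher calls between genotypes in EE in place of 182, and 7 higher and 10 lower calls for EE in CBP-ifKOs in place of 1 and 1. Ubtf was not called with the block (edgeR adjusted p = 0.0525). Without a filter, 1158 genes were called lower between genotypes in SC against 704, 382 higher and 1295 lower in EE against 182 and 623, and for EE 77 higher and 68 lower in controls against 0 and 0, and 131 and 116 in CBP-ifKOs against 1 and 1; the interaction gave 70 and 40 against 0 and 0. Other mice in the fit gave 331 and 962 genes in EE, and 7 and 14 for EE in CBP-ifKOs. The length trend gave 422 higher in SC, 297 higher in EE and 4 and 2 for EE in CBP-ifKOs. DESeq2 gave 952 lower in EE, 15 and 31 for EE in CBP-ifKOs and 7 and 6 in controls, and halved counts gave 0 and 0 for EE in CBP-ifKOs. Without both control mice numbered 2, 768 and 1140 genes were called in SC, 281 higher in EE and 6 and 12 for EE in CBP-ifKOs. With 1 mouse left out in SC, 67 to 768 genes were called higher and 319 to 1140 lower. Bop1 and Rps6kb2 were not called with halved and thinned counts (edgeR adjusted p = 0.0640 and 0.0786), nor was Rps6kb2 with the other mice in the fit (0.0532). Low counts limit some members: intervals are wide below 1 CPM, and Rpl39l, Rpl6l, Rpl32l and Rpl10l were tested in no comparison.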

Other observations

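One pseudogene of a member split the mice into a low and a high set that followed genotype in all but 2 mice. Gm6472, a transcribed processed pseudogene with 469 stretches of 50 bases in common with Rps7, was at 2.004, 1.55 and 1.60 CPM in Control SC and 9.33, 9.14 and 8.85 CPM in CBP-ifKO SC, a log2 fold change of 2.40 (SE 0.15, edgeR adjusted p = 1.03e-05). In EE, controls were at 1.62, 9.69 and 1.39 CPM and CBP-ifKOs at 7.70, 9.13 and 1.94 CPM, with a log2 fold change of 0.59 (SE 0.66, edgeR adjusted p = 0.676). Every mouse was thus either between 1.39 and 2.004 CPM or between 7.70 and 9.69 CPM, and Control EE mouse 2 and CBP-ifKO EE mouse 3 were each on the side of most mice of the other genotype. Crebbp, at 77.1 and 46.7 CPM in these 2 mice, was within the range of their labelled genotypes in both. Rps7 itself was at 2.09 to 3.79 CPM, without such a split, at 3.14 ± 0.35 CPM in Control SC and 2.75 ± 0.69 CPM in CBP-ifKO SC. Of the 43 pseudogenes sharing stretches with members that were tested in SC, Gm6472 was the only one called. The pseudogenes that share stretches with members took, with Gm6472 included, 0.00813 to 0.00906% of counts in the 6 control libraries and 0.00910 to 0.00999% in the 6 CBP-ifKO libraries, without overlap. Without Gm6472 the ranges were 0.00793 to 0.00892% and 0.00819 to 0.00919%, which overlap. Of the pseudogenes tested, 22 were above 0 and 21 below between genotypes in SC (median log2 fold change 0.02), and 21 above and 21 below in EE (median -0.01).

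Rps2 was the member at 10 CPM or more with the lowest single deviations: 21.3 CPM in Control EE mouse 1 and 23.4 CPM in CBP-ifKO EE mouse 2, against 29.1 to 35.7 CPM in the other 10 mice. It was chosen after its values were seen.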
